A study of Mus musculus with 8 samples.

Results

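The enzymes that turn cholesterol into conjugated bile acids were followed in mouse liver as a set of 10 genes: Cyp7a1, Cyp8b1, Cyp7b1, Cyp27a1, Hsd3b7, Akr1d1, Amacr, Slc27a5, Baat and Scp2. Members were found by gene symbol in the platform annotation, which gave 10 of the 12393 genes with a probe set of their own, and 17 of the 22626 probe sets that were not controls. All 17 were bright enough to be tested, among 15838 probe sets in all. Liver RNA of 8 samples had been hybridised to Affymetrix oligonucleotide arrays, with 2 arrays in each of 4 groups.

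The mice had a C57B6 background, were 8 months old and had eaten Western diet for 12 weeks. Each had been given an adeno-associated virus (AAV2.8) at 10 weeks of age, whose transgene was driven by the liver-specific promoter of human thyroxine binding globulin. LXRα T09 livers carried a human LXRα transgene and came from mice injected intraperitoneally with the LXR agonist T0901317 (T09) at 5 mg/kg for 3 days. LXRα vehicle livers had the same transgene and vehicle injections, GFP T09 livers a GFP transgene and T09, and GFP vehicle livers a GFP transgene and vehicle. Every group therefore shared the background, the diet and a virus. The labels number the samples of a group but do not say more of how they were drawn, so p-values measure the spread between these samples.

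Bile acids are made in hepatocytes by a classic and an alternative route. Cyp7a1, cholesterol 7α-hydroxylase, starts the classic route and limits its rate, and Cyp8b1, sterol 12α-hydroxylase, adds the hydroxyl group that distinguishes cholic acid. In the alternative route Cyp27a1 first oxidises the side chain and Cyp7b1, oxysterol 7α-hydroxylase, then acts on the ring. Mouse Cyp7a1 is a known target of LXRα, while in mice bile acids returning through the nuclear receptor FXR and its target SHP lower Cyp7a1 and Cyp8b1.

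The enzymes of the classic route differed in opposite directions between T09 and vehicle livers. Averaged over both transgenes, Cyp7a1 was 4.46-fold higher on its brightest probe set and Cyp8b1 3.82-fold lower in T09 livers than in vehicle livers. These were the 2 of 17 member probe sets with an adjusted p under 0.05 in that comparison (limma, Benjamini-Hochberg over all probe sets tested), in which 0.568% of all probe sets tested were called. The other Cyp7a1 probe set was 2.08-fold higher (limma adjusted p = 0.226). Neither call held after adjustment for a ratio that tracks RNA quality, described below. Cyp27a1 of the alternative route differed by -0.05 on the log2 scale between the same groups, with a 95% interval of -0.43 to 0.33. Cyp7b1 stood apart in LXRα vehicle livers, where both arrays were above the other 6, but no comparison of it passed the threshold.

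**Figure D1:**
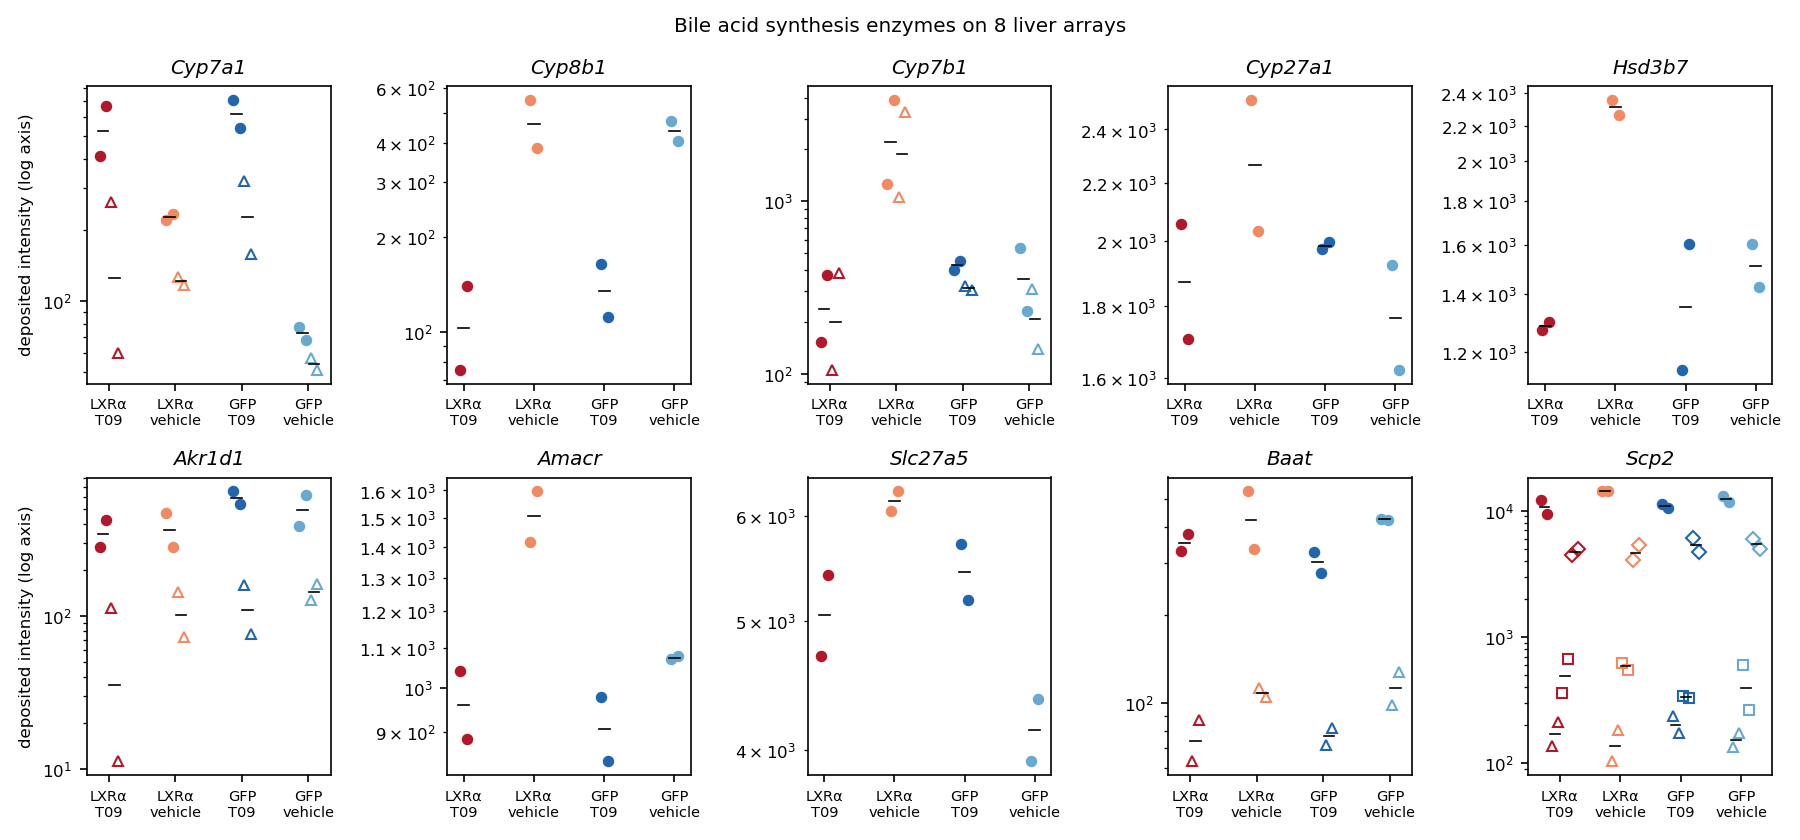
Deposited intensity of each probe set on each array (vertical log axis, arbitrary units), for the 10 genes and 4 groups (LXRα T09 dark red, LXRα vehicle orange, GFP T09 dark blue, GFP vehicle light blue). Filled circles are the brightest probe set of a gene, open markers its other probe sets, and black lines geometric means of 2 arrays. All T09 arrays lie above all vehicle arrays for filled Cyp7a1 circles and below them for Cyp8b1.

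The arrays differed in signs of RNA quality, and these moved with treatment. The ratio of 3' to 5' control probe signal of β-actin, which increases where 5' ends of transcripts are lost, was 2.75 and 36.3 on LXRα T09 arrays, 2.61 and 3.08 on LXRα vehicle arrays, 7.56 and 11 on GFP T09 arrays, and 2.21 and 2.08 on GFP vehicle arrays. A middle probe set for 18S ribosomal RNA gave 11.8 to 45.3 on the 4 T09 arrays, against 245 to 638 on the 4 vehicle arrays. The 3' to 5' ratio of pyruvate carboxylase was 26.4 to 60.5 on T09 arrays and 4.75 to 11.2 on vehicle arrays. Treatment and RNA quality therefore cannot be fully told apart on these arrays. LXRα T09 replicate 2 and both GFP T09 arrays are called the 3 high-ratio arrays below. Every T09 comparison made on all 8 arrays rests on them at least in part. Albumin, the defining hepatocyte transcript, was bright on every array, at intensities of 19677 to 31022.

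The brightest probe set of Cyp7a1 (1438743_at) gave intensities of 412 and 671 in LXRα T09, 219.6 and 232 in LXRα vehicle, 713 and 543 in GFP T09, and 77.8 and 68.2 in GFP vehicle livers. No T09 array overlapped a vehicle array, and among vehicle livers both arrays with the LXRα transgene were above both with GFP. The mean log2 intensities were 9.04 ± 0.50 in LXRα T09, 7.82 ± 0.06 in LXRα vehicle, 9.28 ± 0.28 in GFP T09 and 6.19 ± 0.14 in GFP vehicle livers (SD, n = 2 each). By limma, the averaged T09 difference was 2.16 on the log2 scale (SE 0.21, 95% interval 1.66 to 2.66, adjusted p = 0.0250).

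Within a transgene the Cyp7a1 difference was larger in the GFP livers but missed the threshold in each. GFP T09 livers were 8.54-fold above GFP vehicle livers (limma adjusted p = 0.0702), and LXRα T09 livers were 2.33-fold above LXRα vehicle livers (adjusted p = 0.195). The test of the difference itself gave -1.88 on the log2 scale for T09 in LXRα minus GFP livers (SE 0.42, limma adjusted p = 0.906). Between the vehicle groups Cyp7a1 was 3.10-fold higher with the LXRα transgene, which is 1.63 on the log2 scale (SE 0.30, limma adjusted p = 0.580). With T09 given, LXRα and GFP livers differed by -0.24 on the log2 scale (95% interval -0.95 to 0.46). The comparisons share arrays, so these values are not independent of each other.

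The averaged Cyp7a1 call depended on single arrays. The log2 difference stayed between 1.98 and 2.33 with each array left out in turn. The adjusted p went above the threshold without GFP T09 replicate 1 (0.0924), GFP T09 replicate 2 (0.0965), GFP vehicle replicate 2 (0.0972), LXRα vehicle replicate 1 (0.0784) or LXRα vehicle replicate 2 (0.182).

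A second Cyp7a1 probe set, 1422100_at, was dimmer and gave 262 and 60.1 in LXRα T09, 126 and 117 in LXRα vehicle, 323 and 159 in GFP T09, and 57.4 and 51.0 in GFP vehicle livers. LXRα T09 replicate 2, the array with the highest β-actin ratio, was below both LXRα vehicle arrays here although it was the brightest of the LXRα arrays on 1438743_at. The averaged T09 difference of this probe set was 1.06 on the log2 scale (SE 0.47, limma adjusted p = 0.226).

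The gap between these Cyp7a1 probe sets was not the same on all arrays. Each was expressed as the log2 change from its own GFP vehicle mean, and 1438743_at was subtracted from 1422100_at. The gap was -0.22 and -3.05 in LXRα T09, -0.38 and -0.56 in LXRα vehicle, -0.71 and -1.34 in GFP T09, and -0.01 and 0.01 in GFP vehicle livers. It was lowest on the 3 high-ratio arrays. With the log2 β-actin ratio as a covariate, the averaged T09 difference was 1.82 for 1438743_at (limma adjusted p = 0.114) and 2.22 for 1422100_at.

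**Figure D2:**
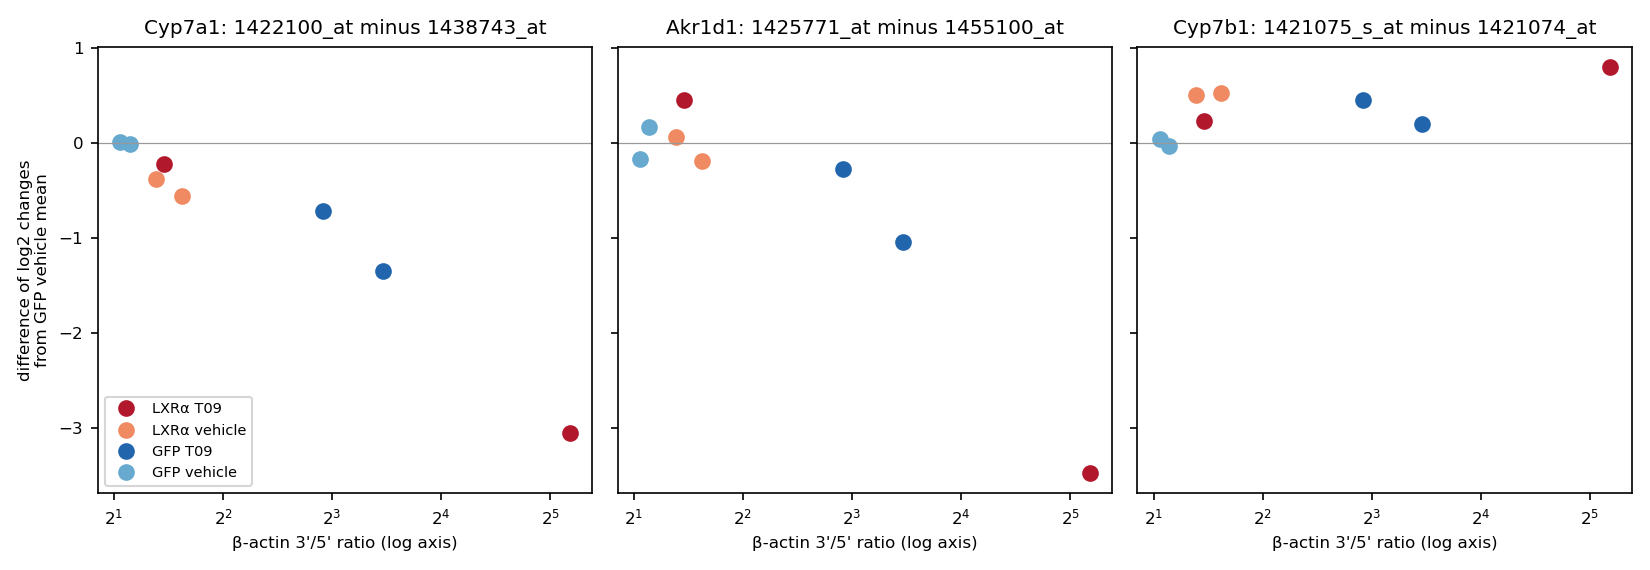
Gap between the probe sets of Cyp7a1, Akr1d1 and Cyp7b1 (vertical axis, log2 change of one minus log2 change of the other, each from its GFP vehicle mean) against the β-actin 3'/5' ratio of the array (horizontal log axis), 1 point per array. The array at a ratio of 36.3 has a gap of -3.05 for Cyp7a1 and -3.47 for Akr1d1, and 0.79 for Cyp7b1.

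Cyp8b1 has 1 probe set, 1449309_at, with intensities of 75.4 and 139.7 in LXRα T09, 551 and 385 in LXRα vehicle, 164 and 111 in GFP T09, and 472 and 406 in GFP vehicle livers. All 4 T09 arrays were below all 4 vehicle arrays, and the LXRα and GFP arrays of a treatment overlapped. The averaged T09 difference was -1.93 on the log2 scale (SE 0.27, 95% interval -2.56 to -1.30, limma adjusted p = 0.0480).

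The Cyp8b1 difference within LXRα livers was -2.17 on the log2 scale (limma adjusted p = 0.146) and within GFP livers -1.70 (adjusted p = 0.189). The difference between these, -0.47, had an interval of -1.72 to 0.79. LXRα vehicle and GFP vehicle livers differed by 0.07 (95% interval -0.82 to 0.96). The averaged adjusted p was close to the threshold. With each array left out in turn the log2 difference stayed between -2.15 and -1.71. The adjusted p was 0.0176 without LXRα T09 replicate 1 and 0.0609 to 0.183, above the threshold, without any one of the other 7 arrays. With the log2 β-actin ratio as a covariate the averaged difference was -2.33 (limma adjusted p = 0.114), and with quantile normalization -2.04 (adjusted p = 0.0580).

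The promoter of Cyp8b1 is shown because this enzyme was lower in T09 livers and because its window holds the letters of known liver factor motifs. It is RefSeq sequence in build GRCm38.p6, at chr9:121916256-121916555 on the minus strand, written 5′ to 3′ from 250 bases before the gene's start to 50 after it, and it was available for 5 of the 10 genes (Cyp8b1, Cyp27a1, Hsd3b7, Akr1d1 and Scp2). Capitals mark CAAAGTCCA, the core of sites bound by HNF4α, CAAGGNCA, the core of sites bound by the LRH-1 group of receptors, which overlaps it, and TATAAA, the TATA box.
Cyp8b1: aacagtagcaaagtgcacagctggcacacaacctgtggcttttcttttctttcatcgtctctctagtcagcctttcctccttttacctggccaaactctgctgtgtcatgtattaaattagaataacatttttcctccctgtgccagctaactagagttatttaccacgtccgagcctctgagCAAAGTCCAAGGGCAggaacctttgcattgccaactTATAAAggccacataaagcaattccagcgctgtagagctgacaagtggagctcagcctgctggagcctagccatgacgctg
The HNF4-type letters began 67 bases before the start, the LRH-1-type letters 60 bases and TATAAA 31 bases before it. On either strand CAAAGTCCA was in 0.475% of 32851 mouse promoters of this length in the table, CAAGGNCA in 6.71% and TATAAA in 13.6%. None of these was in the other 4 windows, and AGGTCA repeated after 4 bases (DR4), a strict form of the element that LXR binds with RXR, was in none of the 5 and in 0.0152% of all promoters. The first 3 motifs were picked with the sequence in view, and a match is a description of letters, not of binding.

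Cyp7b1 had the widest range over the 8 arrays of any member. Probe set 1421074_at gave 152 and 374 in LXRα T09, 1267 and 3895 in LXRα vehicle, 399 and 453 in GFP T09, and 539 and 230.3 in GFP vehicle livers. The LXRα vehicle arrays were the highest of the 8 and lay further from each other on the log scale than any of the 4 GFP arrays did. Probe set 1421075_s_at had the same order of groups at the top, with 105 and 384 in LXRα T09, 1065 and 3301 in LXRα vehicle, 322 and 307 in GFP T09, and 311 and 139.8 in GFP vehicle livers.

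On 1421074_at, LXRα vehicle exceeded GFP vehicle livers by 2.66 on the log2 scale (SE 0.68, 95% interval 1.05 to 4.27, limma adjusted p = 0.685), and on 1421075_s_at by 3.17 (SE 0.76, adjusted p = 0.647). LXRα T09 differed from LXRα vehicle livers by -3.22 on both probe sets (adjusted p = 0.176 and 0.191). In GFP livers the T09 difference was 0.27 on 1421074_at (95% interval -1.34 to 1.88). The T09 difference in LXRα minus that in GFP livers was -3.49 (SE 0.96, adjusted p = 0.957) on 1421074_at and -3.82 (SE 1.08, adjusted p = 0.957) on 1421075_s_at. These intervals are wide, and none of the differences passed the threshold.

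Unlike Cyp7a1 and Akr1d1, the probe sets of Cyp7b1 kept close together. Their gap lay between -0.04 and 0.79 on the 8 arrays. With the 3 high-ratio arrays left out, 1 LXRα T09 array and no GFP T09 array remained. LXRα T09 minus LXRα vehicle was then -3.87 for 1421074_at, -2.61 for Cyp8b1 and 0.87 for Cyp7a1 (1438743_at). These directions were seen with all arrays, which include the remaining one. For Cyp7a1 1422100_at the difference was 1.11, against 0.05 with all arrays. Some others changed sign: Akr1d1 1425771_at from -1.52 to 0.15, Scp2 1419974_at from 0.31 to -0.01 and Scp2 1449686_s_at from 0.02 to -0.05. The LXRα T09 array that remained had ratios of 2.75 for β-actin and 26.4 for pyruvate carboxylase, and the vehicle arrays had 4.75 to 11.2 for pyruvate carboxylase.

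Cyp27a1, the mitochondrial sterol 27-hydroxylase, was bright and nearly level. It gave 2057 and 1704 in LXRα T09, 2520.2 and 2034 in LXRα vehicle, 1974 and 1996 in GFP T09, and 1923 and 1620.5 in GFP vehicle livers. Every group overlapped at least one other, and the LXRα vehicle arrays included the brightest. LXRα vehicle exceeded GFP vehicle by 0.36 on the log2 scale (95% interval -0.18 to 0.89, limma adjusted p = 0.963).

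Set side by side as changes from the GFP vehicle mean, the enzymes of the routes had different patterns. Cyp7a1 lay at 2.85 ± 0.50 in LXRα T09, 1.63 ± 0.06 in LXRα vehicle and 3.09 ± 0.28 in GFP T09 livers on the log2 scale (SD, n = 2 each). Cyp7b1 lay at -0.56 ± 0.92, 2.66 ± 1.15 and 0.27 ± 0.13 in the same 3 groups, and Cyp27a1 at 0.08 ± 0.19, 0.36 ± 0.22 and 0.17 ± 0.01. Within the LXRα vehicle livers Cyp7a1 and Cyp7b1 were both above GFP vehicle, while in both T09 groups Cyp7a1 was above it on every array and Cyp7b1, on 1421074_at, within or below its spread. On 1421075_s_at, LXRα T09 replicate 2 (0.88) and GFP T09 replicate 1 (0.63) were above both GFP vehicle arrays (0.58 and -0.58).

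The balance of Cyp8b1 and Cyp7a1 overlapped between both T09 groups. The change of Cyp8b1 minus that of Cyp7a1 was -5.04 and -4.85 in LXRα T09, -1.26 and -1.86 in LXRα vehicle, -4.71 and -4.88 in GFP T09, and 0.01 and -0.01 in GFP vehicle livers. LXRα T09 and GFP T09 arrays overlapped, and LXRα vehicle arrays lay between them and the GFP vehicle arrays. The SD of the LXRα T09 arrays was 0.13 for this balance, 0.50 for Cyp7a1 and 0.63 for Cyp8b1, and that of the LXRα vehicle arrays was 0.43, 0.06 and 0.37. The change of Cyp7a1 minus that of Cyp7b1 was 3.42 ± 0.42 in LXRα T09, -1.02 ± 1.09 in LXRα vehicle, 2.82 ± 0.41 in GFP T09 and 0.00 ± 0.73 in GFP vehicle livers (SD, n = 2 each). No p is given for these scores, since the genes were chosen with results of these arrays known.

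**Figure D3:**
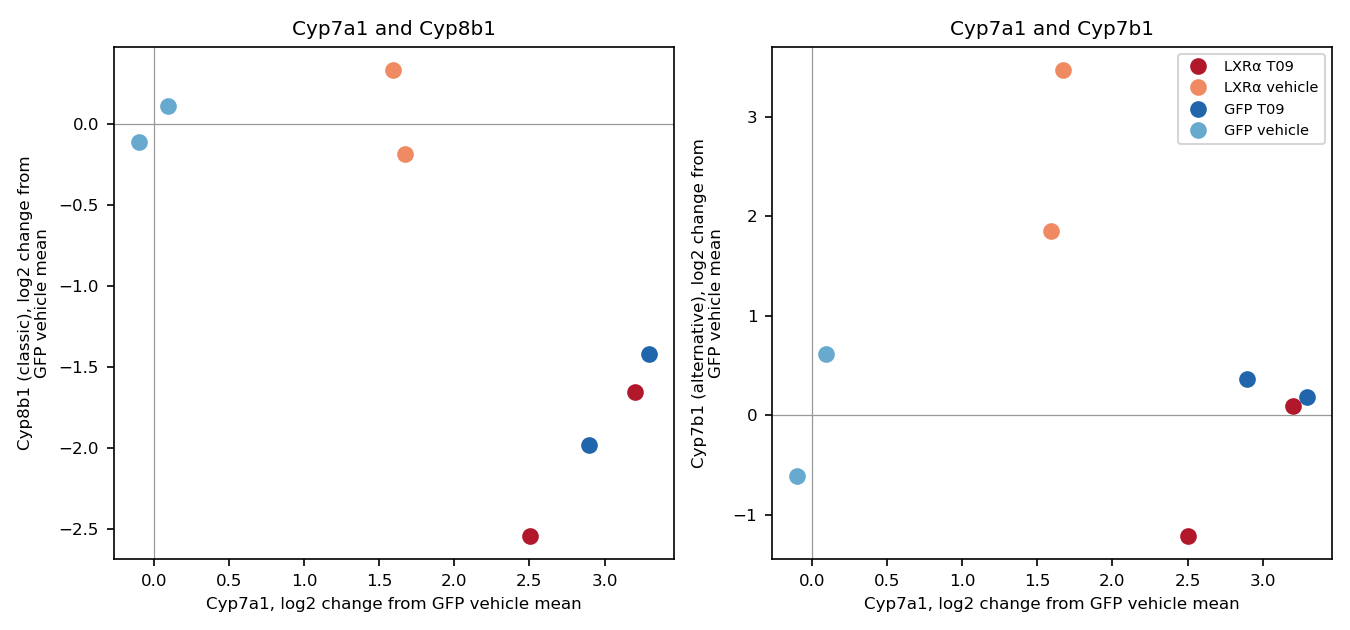
Log2 change from the GFP vehicle mean of Cyp8b1 (left, vertical axis) and Cyp7b1 (right, vertical axis) against that of Cyp7a1 (horizontal axes), brightest probe sets, 1 point per array coloured by group. The 4 T09 arrays lie at the lower right for Cyp8b1, with Cyp8b1 minus Cyp7a1 between -5.04 and -4.71, and the LXRα vehicle arrays at the top for Cyp7b1.

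No enzyme of the steps shared by both routes passed the threshold. Hsd3b7, which oxidises and isomerises the 7α-hydroxylated ring, gave 1272 and 1301 in LXRα T09, 2361 and 2267 in LXRα vehicle, 1143 and 1600.4 in GFP T09, and 1600.4 and 1428 in GFP vehicle livers. Both LXRα vehicle arrays were above all others. The difference was 0.61 on the log2 scale for LXRα vehicle minus GFP vehicle (SE 0.23, limma adjusted p = 0.904) and -0.85 for LXRα T09 minus LXRα vehicle (SE 0.23, adjusted p = 0.235).

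Amacr, the racemase that turns the side chain's methyl group to the form that can be shortened, was also highest in LXRα vehicle livers. It gave 1040.0 and 885 in LXRα T09, 1416 and 1598 in LXRα vehicle, 979 and 839 in GFP T09, and 1070.1 and 1079.7 in GFP vehicle livers. No T09 array reached a vehicle array, and the averaged T09 difference was -0.45 on the log2 scale (SE 0.15, limma adjusted p = 0.168).

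Akr1d1, the reductase that gives the steroid ring its 5β shape, had probe sets that went apart. The brighter one, 1455100_at, gave 282 and 424 in LXRα T09, 469 and 281 in LXRα vehicle, 654 and 537 in GFP T09, and 389 and 619.7 in GFP vehicle livers. Both GFP T09 arrays were above all 4 LXRα arrays, and the other groups overlapped. The dimmer one, 1425771_at, gave 113 and 11.2 in LXRα T09, 144 and 72.4 in LXRα vehicle, 158 and 76.7 in GFP T09, and 128 and 162 in GFP vehicle livers. The value of 11.2 came from the array with the highest β-actin ratio, and the averaged T09 difference of 1425771_at was -0.95 with all arrays and 0.87 with that ratio as a covariate.

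Scp2, sterol carrier protein 2, whose longer form is the thiolase that cleaves the side chain, has 4 probe sets. The brightest, 1426219_at, gave 12053 and 9488 in LXRα T09, 14311 and 14218 in LXRα vehicle, 11336 and 10473 in GFP T09, and 12984 and 11677 in GFP vehicle livers. LXRα T09 replicate 1 was above GFP vehicle replicate 2, so T09 and vehicle arrays overlapped, and the averaged T09 difference was -0.30 on the log2 scale (limma adjusted p = 0.225). The other probe sets gave averaged differences of 0.35, -0.25 and -0.01.

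The enzymes of conjugation differed from each other. Slc27a5, the bile acid CoA ligase, gave 4706 and 5414 in LXRα T09, 6045 and 6261 in LXRα vehicle, 5716 and 5181 in GFP T09, and 3918 and 4363 in GFP vehicle livers. The GFP vehicle arrays were the lowest of the 8 and the LXRα vehicle arrays the highest. LXRα vehicle minus GFP vehicle was 0.57 on the log2 scale (SE 0.19, limma adjusted p = 0.872), and the averaged T09 difference was 0.06 (95% interval -0.26 to 0.37).

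Baat, which joins the bile acid to taurine, had lower means in T09 than in vehicle livers on both probe sets, short of the threshold. Its brighter probe set, 1419002_s_at, gave 329.5 and 378 in LXRα T09, 531 and 337 in LXRα vehicle, 329 and 278 in GFP T09, and 425 and 423 in GFP vehicle livers. On 1419001_at the values were 62.9 and 87.2 in LXRα T09, 112 and 104 in LXRα vehicle, 71.7 and 82.1 in GFP T09, and 98.5 and 127 in GFP vehicle livers. T09 arrays lay below vehicle arrays without overlap on 1419001_at only, and the averaged T09 difference there was -0.55 on the log2 scale (SE 0.18, limma adjusted p = 0.154).

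**Figure D4:**
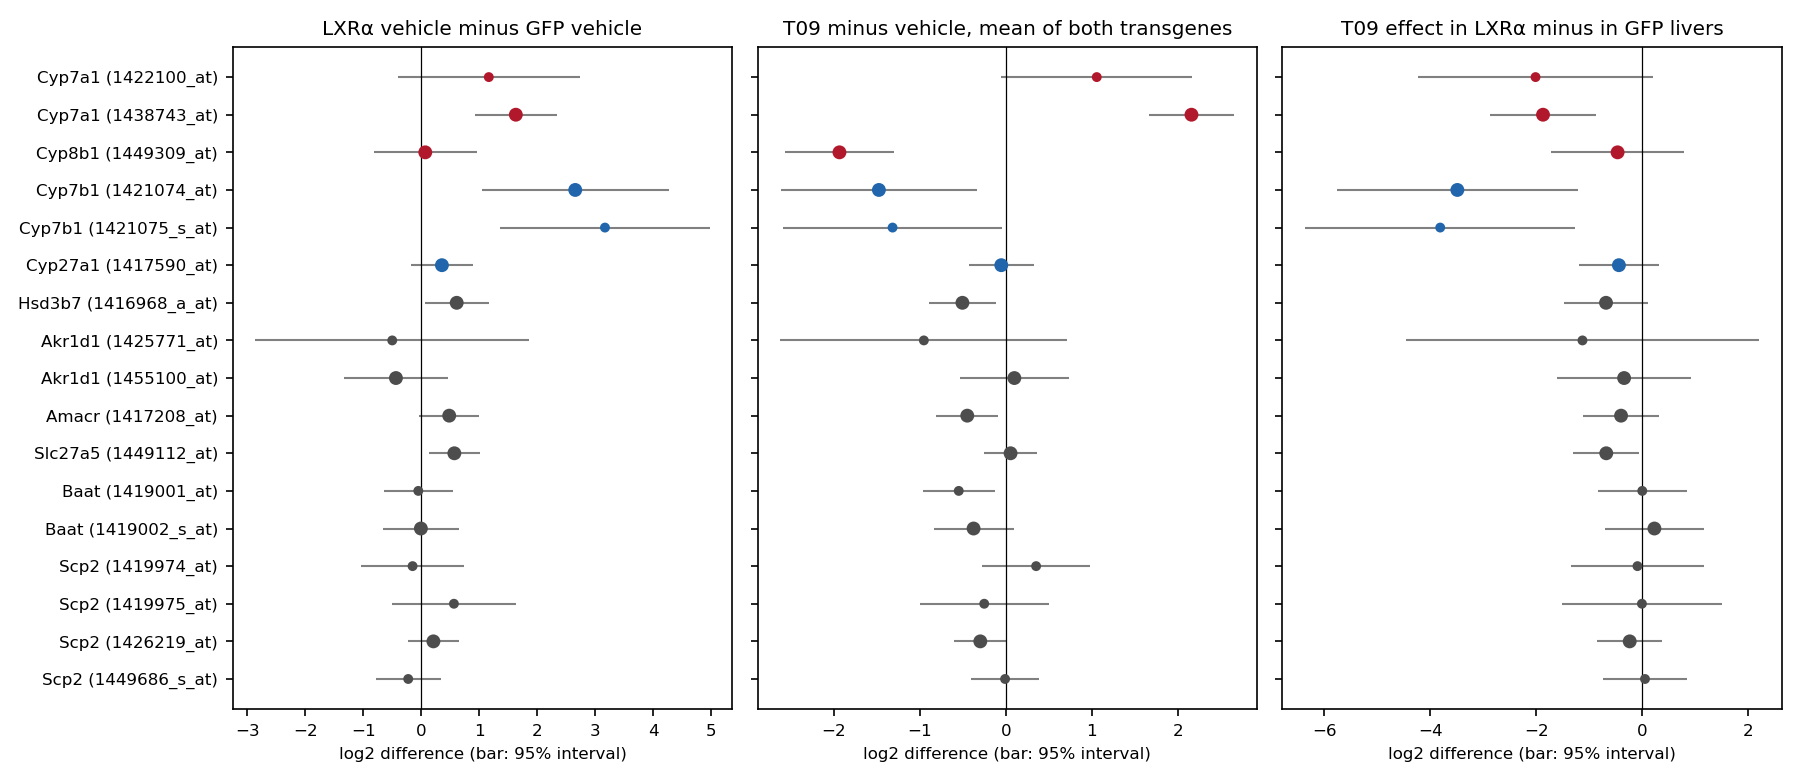
Log2 difference (horizontal axis) with its 95% interval for every probe set of the 10 genes, for LXRα vehicle minus GFP vehicle, T09 minus vehicle averaged over transgenes, and the T09 difference in LXRα minus that in GFP livers. Red marks Cyp7a1 and Cyp8b1, blue Cyp7b1 and Cyp27a1, grey the rest, and large dots the brightest probe sets. In the averaged T09 panel the brightest Cyp7a1 probe set lies at 2.16 and Cyp8b1 at -1.93.

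Counted over the set, 1 of the 17 probe sets was higher and 6 were lower with an unadjusted p under 0.05 in the averaged T09 comparison. Among all probe sets tested the shares were 12.7% higher and 10.5% lower. The member probe set that was higher was Cyp7a1 1438743_at. Those lower were Cyp8b1, both of Cyp7b1, Hsd3b7, Amacr and Baat 1419001_at. For Cyp7b1 the T09 difference was -3.22 on both probe sets in LXRα livers, but 0.27 and 0.59 in GFP livers. All 4 T09 arrays lay above all 4 vehicle arrays for 1 member probe set (Cyp7a1, 1438743_at), against 8.20% of all probe sets. They lay below them for 3 (Cyp8b1, Amacr and Baat 1419001_at), against 8.42%. The median averaged T09 difference was -0.30 for the 17 member probe sets and -0.04 for all.

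In LXRα vehicle over GFP vehicle livers, 0 of 17 passed the adjusted threshold, against 0.00631% of all probe sets. At an unadjusted p under 0.05, 5 were higher, namely Cyp7a1 1438743_at, both of Cyp7b1, Slc27a5 and Hsd3b7, and 0 were lower, against 2.27% and 2.89% of all. The members' median difference was 0.36, and that of all probe sets 0.05.

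Markers of other cells differed between the same groups. All 17 macrophage and Kupffer cell markers tested, of 18 listed, were lower in LXRα vehicle than in GFP vehicle livers, with a median log2 difference of -1.23 and summed intensities of 5175 and 12663 against 17999 and 18919. Stellate cell and matrix markers were lower for 10 of 11 (median -0.76, sums of 1040 to 1278 against 2132 to 3533), as were 8 of 10 endothelial markers (median -0.13, sums of 832 to 1262 against 1125 to 1250.1). Of 9 hepatocyte markers 8 were higher (median 0.29, sums of 123501 to 136113 against 104405 to 119591). Lymphocyte markers had 2 of 4 tested lower and cholangiocyte markers 2 of 2, with Krt7, Krt19 and Cldn7 too dim to test. Their part in the members' differences was not tested, and in whole liver fewer cells of a type and less RNA per cell cannot be told apart.

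With T09, averaged over transgenes, 13 of the 17 macrophage markers, 10 of the 11 stellate cell and matrix markers and 8 of the 10 endothelial markers were higher, with medians of 0.31, 0.63 and 0.33. Macrophage sums were 14156 to 15124 in LXRα T09 and 12527 to 21322 in GFP T09 livers, stellate cell and matrix sums 3410.0 to 3551 and 2430 to 3651, and endothelial sums 1423 to 1526 and 1475 to 1558, each against the vehicle sums above. The hepatocyte markers had a median of 0.00, with 5 of 9 higher and sums of 112514 to 121842 in LXRα T09 and 116616 to 118914 in GFP T09 livers. In LXRα T09 over LXRα vehicle livers 15 of 17 macrophage markers (median 0.98) and 10 of 11 stellate cell and matrix markers (median 1.27) were higher, and 7 of 9 hepatocyte markers were lower (median -0.13). The part of these markers in the T09 differences of the members was not tested.

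The remaining comparisons called no member. In GFP T09 over GFP vehicle livers the adjusted threshold was passed by 0 of 17 and by 0% of all probe sets, and at an unadjusted p under 0.05 by 2 higher and 1 lower (8.50% and 4.65% of all). In LXRα T09 over LXRα vehicle livers it was passed by 0 members and 0.0253% of all, and unadjusted by 1 higher and 5 lower (7.88% and 5.30% of all). In LXRα T09 over GFP T09 livers 0 members passed either threshold, against 0% adjusted and 2.24% unadjusted of all.

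In LXRα T09 over GFP vehicle livers 0 members passed the adjusted threshold (0% of all), and unadjusted 1 was higher and 2 were lower (7.03% and 3.35% of all). For the transgene averaged over treatments 0 passed (0.00631% of all), and unadjusted only Cyp7a1 1438743_at did, 0.70 higher on the log2 scale (1.14% of all were higher and 1.53% lower). For the difference between T09 effects 0 passed (0.00631% of all), and unadjusted 4 were lower and 0 higher (2.42% and 2.34% of all): Cyp7a1 1438743_at, both of Cyp7b1 and Slc27a5.

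Of the other genes of bile acid handling, none of 49 tested passed the adjusted threshold for averaged T09 or LXRα vehicle over GFP vehicle. Among all probe sets 0.568% and 0.00631% did. A list of other enzymes also held lipid carriers and helper proteins, and named Star a second time as Stard1. Among 18 tested, of 22 names listed, 2 were higher and 1 lower with T09 at an unadjusted p under 0.05. In LXRα vehicle over GFP vehicle livers 1 was higher. The shares of all probe sets were 12.7% higher and 10.5% lower with T09, and 2.27% and 2.89% in LXRα vehicle livers. Cyp2c70, which makes muricholic acids in mice, gave 4512 and 4463 in LXRα T09, 6320.4 and 5634 in LXRα vehicle, 4736 and 7267 in GFP T09, and 1701 and 1584 in GFP vehicle livers. The GFP vehicle arrays were the lowest by a wide margin, and LXRα vehicle exceeded GFP vehicle by 1.86 on the log2 scale (SE 0.24, limma adjusted p = 0.299).

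Among 21 regulators, of 24 listed, 1 was higher and 4 were lower with T09 at an unadjusted p under 0.05 (12.7% and 10.5% of all). In LXRα vehicle over GFP vehicle livers 3 were higher and 0 lower (2.27% and 2.89% of all). The regulators lower with T09 were Nr0b2, Nr1h3 (averaged log2 difference -0.88), Rxra (-0.69) and Nr1i3 (-0.92), and Klb was higher (0.40). Nr0b2, which encodes SHP, a repressor of Cyp7a1 and Cyp8b1, gave 133 and 88.1 in LXRα T09, 363 and 259 in LXRα vehicle, 127 and 88.3 in GFP T09, and 191 and 215 in GFP vehicle livers. T09 arrays were below vehicle arrays without overlap, as for 8.42% of all probe sets. The averaged difference was -1.22 on the log2 scale (SE 0.22, limma adjusted p = 0.0690). Klb, the co-receptor through which intestinal FGF15 acts on hepatocytes, gave 73.8 and 89.4 in LXRα T09, 106 and 97.0 in LXRα vehicle, 82.3 and 109 in GFP T09, and 48.5 and 38.9 in GFP vehicle livers. LXRα vehicle exceeded GFP vehicle livers by 1.22 (limma adjusted p = 0.580).

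Among 10 transporters, of 15 listed, 1 was higher and 1 lower with T09 at an unadjusted p under 0.05 (12.7% and 10.5% of all). In LXRα vehicle over GFP vehicle livers 1 was likewise higher and 1 lower (2.27% and 2.89% of all). Slco1b2, an uptake transporter for bile acids, had an averaged T09 difference of -1.08 on its brightest probe set (SE 0.16, limma adjusted p = 0.0502), while its other probe sets gave -0.29, -3.79 and -0.02. Abcc2, an export pump of the canalicular membrane, was 0.90 higher (adjusted p = 0.0992). Abcc3, an export pump of the sinusoidal membrane, gave 996 and 672 in LXRα T09, 514 and 261 in LXRα vehicle, 938 and 475 in GFP T09, and 1119 and 836 in GFP vehicle livers. LXRα vehicle minus GFP vehicle was -1.40 on the log2 scale (SE 0.46, limma adjusted p = 0.872).

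The genes whose log2 intensity ran most like the members over the 8 arrays were sought among the 1546 tested genes with an SD above 0.5. For Cyp7a1 these were Aak1 (Pearson r = 0.983), Acvr2a (0.973), Zyg11b (0.969) and Uhrf1bp1l (0.965), and those running most opposite were Cdk5 (-0.931) and Bche (-0.924). For Cyp8b1 they were Rbbp4 (0.959), Slc22a30 (0.933), Uqcc1 (0.922) and Slco1b2 (0.916), with Dapk2 (-0.971) and Arhgef5 (-0.968) opposite. For Cyp7b1 they were B3galt1 (0.951), Pfkfb3 (0.941), C8a (0.917) and Egfr (0.912), with 2010003K11Rik (-0.974) and Ccl9 (-0.969) opposite. The 8 arrays share groups and quality differences, and no p is given.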

How the data were processed

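Liver RNA was measured on 1 Affymetrix array per sample, with groups taken from the labels. A genotype that all groups shared is not reported here. The deposited table holds 1 linear intensity per probe set and array, as the authors made it. How the probes were summarised and the arrays scaled is not given in the sources used here, and the scale was read from the range of the values. Array medians lay between 21.0 and 23.2, and the deposited scaling was kept.

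Intensities were raised to a floor of 7.50, their 20th percentile, and log2-transformed. Probe sets with a mean above the 30th percentile were tested (15838 of 22626 without controls). Gene names came from the platform annotation, updated through Entrez IDs in RefSeq for 20351 probe sets. The 4 group means were fitted on all 8 arrays with limma 3.58.1 in R 4.3.3 (eBayes with intensity trend, 4 residual and 2.93 prior degrees of freedom), with Benjamini-Hochberg adjustment over the whole table in each comparison. An adjusted p under 0.05 was called. The averaged T09 fit was also run on simulated arrays with independent noise. These held no quality difference between arrays, so that run cannot speak to the quality differences seen here. The number of arrays limits the precision.

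The members, the lists of other pathway genes and the cell markers were chosen with earlier results of these data known. List genes and markers are shown by their brightest tested probe set with 1 symbol. The list genes named were taken from the up to 4 of each list with the smallest p in the averaged T09 or the LXRα vehicle over GFP vehicle comparison, and not all of these are named. Whether probe sets of the mouse gene bind RNA of the transgene is not known, so the transgene's level is not reported. Alternatives were quantile normalization, median centring, other floors, filters and variance models, a replicate block, a fit on the compared groups only, omission of each array, adjustment for the β-actin 3'/5' ratio, and the 3 high-ratio arrays left out. A sample left alone in its group by such an omission was taken to have the spread of the other groups.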

Additional observations from a re-analysis of the deposited data

Results flagged for a closer look

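For 4 member probe sets the T09 difference was not the same in LXRα as in GFP livers by the limma test of that difference at an unadjusted p under 0.05, and none passed after adjustment over all probe sets. On the log2 scale the T09 difference in LXRα minus that in GFP livers was -1.88 for Cyp7a1 (1438743_at), -3.49 and -3.82 for Cyp7b1 (1421074_at and 1421075_s_at) and -0.68 for Slc27a5. The adjusted p was 0.906 for Cyp7a1, 0.957 for both of Cyp7b1 and 1.00 for Slc27a5. All 4 were lower, out of 17 members, and 2.42% of all probe sets were lower at the same unadjusted threshold. Groups of 2 arrays allow no search for outlying samples.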

How the results depend on the processing

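The number of member probe sets called for T09 averaged over transgenes was 2. It was 0 after adjustment for the β-actin ratio, 0 with no filter, 1 with quantile normalization, 0 with a replicate block, and 0 to 3 with each array left out. Over the other comparisons, which called 0, leaving out an array gave 0 to 1 for GFP T09 over GFP vehicle (1 without either LXRα T09 array), 0 to 1 for LXRα T09 over LXRα vehicle and 0 to 2 for LXRα T09 over GFP vehicle, the highest of each of these last 2 without LXRα T09 replicate 1. In those fits the calls over all probe sets numbered 41 and 43 for GFP T09 over GFP vehicle (without LXRα T09 replicate 1 and 2), 473 for LXRα T09 over LXRα vehicle and 494 for LXRα T09 over GFP vehicle, against 0, 4 and 0 with all arrays. Over 18 alternatives the averaged T09 difference was 1.82 to 2.33 for Cyp7a1 (1438743_at; adjusted p 0.00785 to 0.182, called in 10) and -2.33 to -1.71 for Cyp8b1 (adjusted p 0.0176 to 0.183, called in 7). Among all probe sets the averaged T09 calls numbered 90, 68 higher and 22 lower. They numbered 111 with median centring (95 and 16), 32 with quantile normalization (22 and 10), 15 with no filter, 17 with the replicate block, 4 with that adjustment, and 0 to 1509 with an array left out (1509 without LXRα T09 replicate 1, 0 without LXRα vehicle replicate 2). The cause was not tested. Same-numbered arrays had deviations that correlated at -0.14 to 0.25, so the numbers were not taken to pair samples. Of 2584 member values under alternatives, 2438 kept direction and side of the threshold, 19 lost a call, 6 gained one and 121 changed sign, none of those last with an unadjusted p under 0.05 on the reported setting and 2 with one under the alternative. The compared groups alone gave no value for averaged comparisons or the difference between T09 effects, and leaving out the 3 high-ratio arrays gave none where GFP T09 was needed.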
